A study of Mus musculus with 21 samples.

Results

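Interferon-stimulated genes are switched on when a cell senses interferon, and 48 of them were followed here in the kidneys of mice with adenine-induced chronic kidney disease. The genes were taken by symbol from a list chosen with earlier results of these data known, and were sorted by function into 9 groups. Of the 48, 46 were linked by symbol to a gene identifier and were present in both deposited count tables, which share 20634 genes. Gbp5 and Gbp6, 2 guanylate-binding proteins, carried no identifier in the symbol table and were not analysed here. All 46 passed the filters on low values in every comparison, with no fewer than 6 reads in any mouse.

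RNA was sequenced from whole kidneys of 17 female mice, each lacking apolipoprotein E (apoE knockout) on the C57BL/6J background, a genotype prone to high plasma cholesterol that the controls share. Plasma lipids were not analysed here. The mice were 4 weeks old when the diets began, ate them for 14 weeks and were 18 weeks old at collection. The Con group (n = 5) ate chow, the Ade group (n = 6) ate chow with 0.2% adenine, and the Ade + IMC group (n = 6) ate chow with 0.2% adenine and 0.06% iodomethylcholine (IMC), which inhibits the bacterial step that makes trimethylamine, the precursor of trimethylamine N-oxide (TMAO). Another 4 labelled mice, which ate chow with IMC, were not analysed here, so any action of IMC without adenine was not measured.

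Interferons bind receptors that signal through JAK kinases to STAT proteins. Type I and type III interferons act through a complex with STAT2 and IRF9 that binds the interferon-stimulated response element (ISRE), whereas interferon-gamma acts through the gamma-activated site (GAS). Many targets are antiviral: sensors of foreign nucleic acid, proteins that block translation or degrade RNA, and large GTPases that attack the vacuoles of intracellular microbes. Many of these genes can answer to several kinds of interferon.

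The sequencing depth was modest and differed between groups. Total counts ranged from 7716126 to 11680809 reads in Con, from 5444833 to 7673215 in Ade and from 5728589 to 8305968 in Ade + IMC. Kidney identity held, with Lrp2, the endocytic receptor megalin of the proximal tubule, at 368 CPM (reads scaled to a library of 1000000) or more and the tubular gene Umod at 2019.7 CPM or more in every mouse. Apoe, the gene targeted in all groups, gave 6.05 to 26.7 CPM, which has no wild-type sample to be set against. Within each group the libraries differed by more than sampling noise, with chi-square per degree of freedom of 3.96 or more for the closest pair, so each mouse was counted as 1 sample.

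Promoters of 9 members are shown because 6 of these genes rose together in the adenine-fed kidneys and 3 did not, and because they carry, or lack, the letters of the known interferon response sites. They come from RefSeq on build GRCm38.p6, which held 36 of the 48 genes, and each run is the 130 bases before the annotated start, 5′ to 3′ on the gene's strand, with capitals marking ISRE cores (GAAANNGAAA on either strand) and GAS cores (TTCNNNGAA). Ifit1 (chr19:34640759-34640888, plus strand) and Isg15 (chr4:156200819-156200948, minus strand) encode an inhibitor of foreign RNA translation and a ubiquitin-like modifier. Oas3 (chr5:120777660-120777789, minus strand) makes the 2-5A signal that activates RNase L. Gbp7 (chr3:142530206-142530335, plus strand) and Igtp (chr11:58199426-58199555, plus strand) encode interferon-induced GTPases, and Irf1 (chr11:53769884-53770013, plus strand, the upstream of its 2 entries) encodes a transcription factor. Gbp3 (chr3:142559914-142560043, plus strand, the upstream of its 2 entries), Rsad2 (chr12:26456453-26456582, minus strand) and Cmpk2 (chr12:26469085-26469214, plus strand) belong to the 3 members that did not pass the test in the adenine-fed mice.
Ifit1: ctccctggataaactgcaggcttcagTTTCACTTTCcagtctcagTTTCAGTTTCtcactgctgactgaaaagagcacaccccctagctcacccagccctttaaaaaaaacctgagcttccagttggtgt
Isg15: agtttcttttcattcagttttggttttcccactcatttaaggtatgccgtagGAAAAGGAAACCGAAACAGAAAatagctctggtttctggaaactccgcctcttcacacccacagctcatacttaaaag
Oas3: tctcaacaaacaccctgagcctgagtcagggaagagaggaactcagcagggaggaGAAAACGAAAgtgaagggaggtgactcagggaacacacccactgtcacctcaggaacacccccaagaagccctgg
Gbp7: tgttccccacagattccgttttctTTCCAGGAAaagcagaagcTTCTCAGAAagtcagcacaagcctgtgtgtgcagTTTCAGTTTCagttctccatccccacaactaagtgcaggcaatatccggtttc
Igtp: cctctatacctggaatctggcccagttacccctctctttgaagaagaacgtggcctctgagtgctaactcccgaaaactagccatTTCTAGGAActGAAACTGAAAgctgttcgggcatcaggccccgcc
Irf1: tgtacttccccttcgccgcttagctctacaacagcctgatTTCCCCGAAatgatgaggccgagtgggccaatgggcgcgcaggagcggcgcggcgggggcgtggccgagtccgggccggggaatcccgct
Gbp3: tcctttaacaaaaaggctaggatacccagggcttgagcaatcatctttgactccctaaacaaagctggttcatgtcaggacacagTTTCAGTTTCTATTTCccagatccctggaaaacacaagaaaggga
Rsad2: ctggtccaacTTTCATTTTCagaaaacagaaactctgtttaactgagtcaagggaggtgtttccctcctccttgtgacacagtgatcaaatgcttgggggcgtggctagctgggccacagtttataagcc
Cmpk2: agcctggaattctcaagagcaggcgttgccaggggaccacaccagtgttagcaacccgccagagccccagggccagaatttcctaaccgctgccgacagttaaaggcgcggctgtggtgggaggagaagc

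In the full window of 250 bases before to 50 after the start, 24 of the 36 members (66.7%) held an ISRE core in at least 1 entry, compared with 1079 of all 27025 genes in the table (3.99%). A GAS core was found in 12 members (33.3%), compared with 9.55% of all genes. The GAS core was held by 4 of 6 immunity-related GTPase promoters and by 1 of 6 OAS promoters, whereas the ISRE core was held by 5 and 4 of them, respectively. Overlapping matches occurred, as in Isg15, where 3 ISRE cores lie within a single run of capitals. Rsad2 held 1 ISRE core, the upstream Gbp3 entry held 2 overlapping ones, and Cmpk2 held neither core in this window. These matches describe letters only, and binding was not measured.

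The question put to the first comparison was what adenine feeding did to these genes. Because the list was chosen with earlier results known, the counts describe it and do not test it against the background. Of the 46 members, 43 were higher in Ade than in Con (edgeR's quasi-likelihood test, Benjamini-Hochberg adjusted p below 0.1) and 0 were lower, against a background of 35.1% of all 14612 genes called higher and 32.2% called lower. The median member rose by 1.54 on the log2 scale, a 2.90-fold difference, whereas the median of all genes tested was 0.02. In 39 of the 46 members the lowest Ade mouse lay above the highest Con mouse, compared with 22.8% of all genes. Summed over the 46 members, the level ran from 1043 to 1104 CPM in Con and from 2050.1 to 3088 CPM in Ade, with no overlap.

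Mice given IMC with adenine were set against the same Con mice, so the results of both comparisons share their controls. Again 43 of the 46 members were higher and 0 were lower, against 30.9% of 14578 genes called higher and 32.3% called lower. The median was 1.39 on the log2 scale (all genes, -0.02), and 39 members had an Ade + IMC range entirely above the Con range, compared with 20.7% of all genes. Summed member levels in Ade + IMC ran from 1836 to 2832 CPM. The shares of all genes in both comparisons with Con are also the background for the function groups and marker lists below. The heatmap of members by mouse shows this rise in every adenine-fed kidney, and the 3 rows that stay pale.

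**Figure D1:**
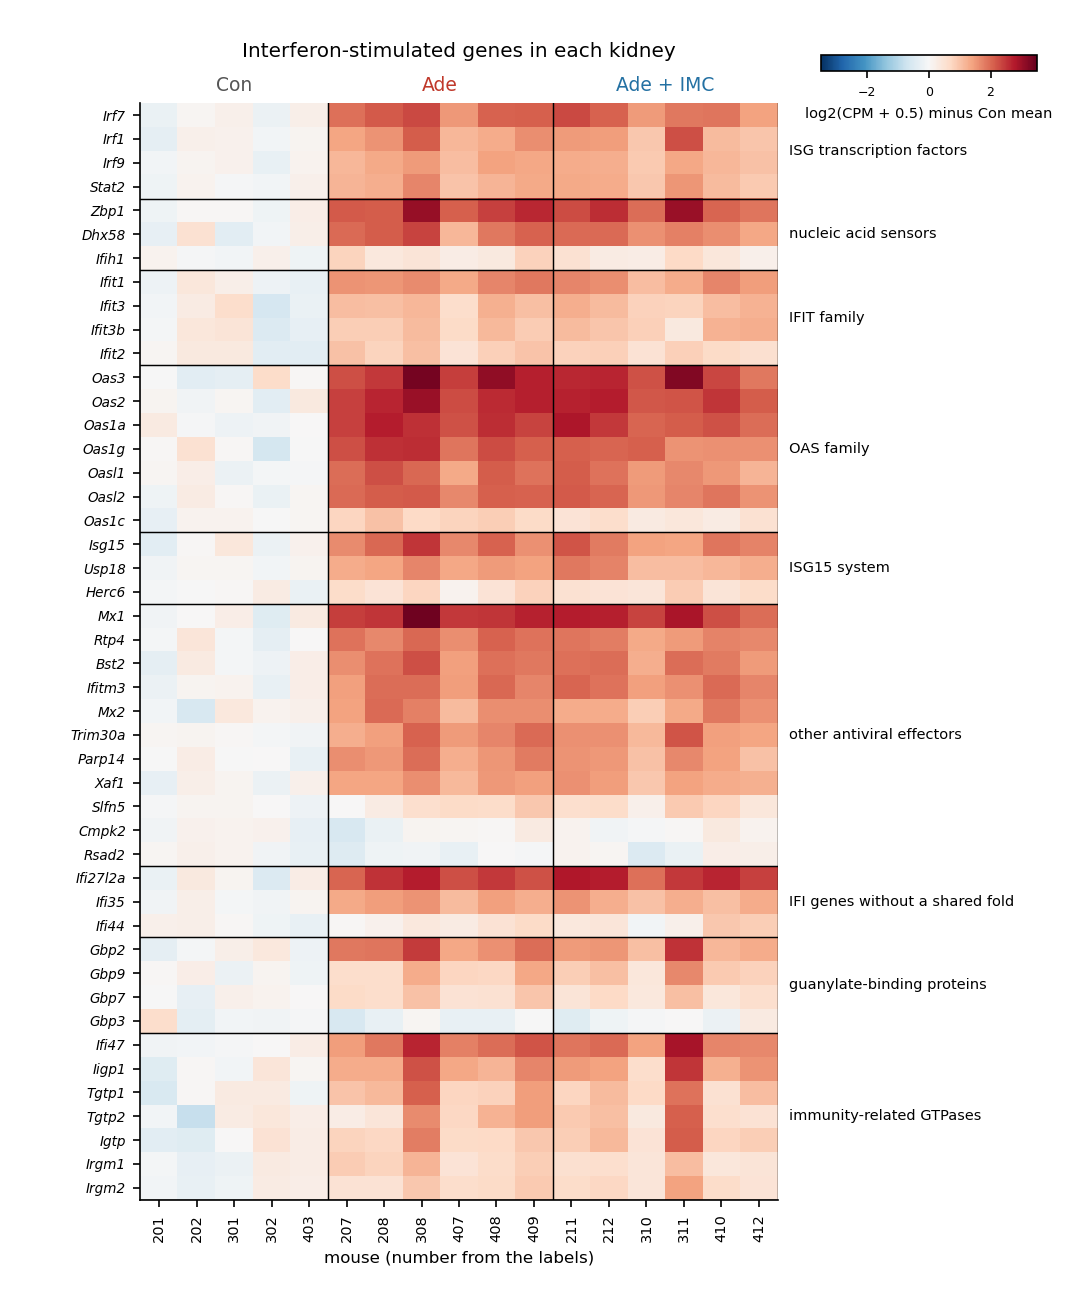
Each of the 46 measured members (rows, grouped by function) in each of 17 kidneys (columns, by mouse number), as log2(CPM + 0.5) minus the mean of the 5 Con mice. Nearly all rows are red in Ade and Ade + IMC, Rsad2, Cmpk2 and Gbp3 stay near 0, and mice 308 and 311 are darkest in the GTPase rows at the bottom.

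Markers of immune cells, tubules and red cells differed in the same kidneys. The 8 macrophage markers, all called higher in Ade, summed to 213 to 255 CPM in Con, 1446 to 2416 CPM in Ade and 1310.1 to 2211 CPM in Ade + IMC. The T and NK cell markers (7 of 7 tested higher, 8 summed) ran from 5.54 to 13.9 CPM in Con, from 44.9 to 179 CPM in Ade and from 52.4 to 248 CPM in Ade + IMC. All 6 B and plasma cell markers were called higher, with the largest median of the marker lists in Ade (4.22 on the log2 scale), and summed to 5.02 to 11.9 CPM in Con, 30.7 to 960.1 CPM in Ade and 62.9 to 2690.0 CPM in Ade + IMC. The 2 neutrophil markers tested were also higher in Ade (median 3.88) but sparse, at no more than 21.6 CPM in any mouse. All 5 red cell markers were called lower in both adenine-fed groups, with sums of 183 to 248 CPM in Con, 15.8 to 103.7 CPM in Ade and 81.6 to 227 CPM in Ade + IMC. All 6 proximal tubule markers were called lower, their sum going from 10740.2 to 15977 CPM in Con down to 1781 to 6667 CPM in Ade and 2814 to 5568 CPM in Ade + IMC. Plasmacytoid dendritic cell markers, from the cells best known for interferon-alpha, were sparse, at 1.44 to 2.88 CPM in Con, 3.19 to 6.28 CPM in Ade and 3.51 to 8.96 CPM in Ade + IMC, and no marker in these lists was at 0 in a whole group. In bulk tissue, more cells of a type and more RNA per cell cannot be told apart, and the part of these cell types in the members' rise was not tested.

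The transcription factors that carry the interferon signal all rose in Ade, by 1.31 to 2.05 on the log2 scale. Irf7, the factor that amplifies type I interferon production and the most abundant of the group per kilobase of exon, stood at 25.3, 31.1, 33.9, 26.0 and 34.3 CPM in the 5 Con mice, at 86.3 (lowest), 128.7 (median) and 151 CPM (highest) in Ade, and at 80.8, 109 and 151 CPM in Ade + IMC. Every adenine-fed mouse exceeded every Con mouse. The log2 fold change was 2.05 (SE 0.14, adjusted p = 8.58e-08) in Ade and 1.84 (SE 0.16, adjusted p = 1.85e-06) in Ade + IMC. Stat2, a subunit of the ISRE-binding complex, rose least, from 41.6 to 52.5 CPM in Con to 92.5 to 152 CPM in Ade (log2 fold change 1.31, SE 0.12). Irf9, which gives that complex its DNA contact, rose by 1.32 and Irf1, a GAS-driven factor, by 1.57. The ranges of all 4 factors in Ade and in Ade + IMC lay above those in Con.

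Sensors of foreign nucleic acid differed widely in the size of their rise. Zbp1, which senses Z-form nucleic acid and can start necroptosis, stood at 5.96, 6.91, 6.89, 6.05 and 7.95 CPM in Con, at 30.1, 34.4 and 59.3 CPM (lowest, median, highest) in Ade and at 26.1, 31.9 and 58.1 CPM in Ade + IMC. That was a 5.79-fold rise in Ade (log2 2.53, SE 0.19, adjusted p = 1.98e-07) and a 5.28-fold rise in Ade + IMC (log2 2.40, SE 0.22). Dhx58, the regulator LGP2 of RIG-I-like receptors, rose by 2.03 on the log2 scale in Ade. Ifih1, the long double-stranded RNA sensor MDA5, rose by 0.52 (SE 0.12, adjusted p = 0.0014), from 28.0 to 35.3 CPM in Con to 37.6 to 54.6 CPM in Ade, and by 0.37 (SE 0.11, adjusted p = 0.0128) in Ade + IMC.

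The 4 IFIT genes, whose products bind viral RNA ends, lie side by side on chromosome 19 (chr19:34550694-34650009, GENCODE M21 on GRCm38), and all rose in both groups. Ifit1 was the leader, at 9.93, 15.0, 13.0, 9.79 and 9.25 CPM in Con and 28.6, 35.4 and 41.2 CPM (lowest, median, highest) in Ade, with 24.1, 33.7 and 37.8 CPM in Ade + IMC. Its ranges did not overlap, and the log2 fold change was 1.65 (SE 0.14, adjusted p = 4.62e-07) in Ade and 1.48 (SE 0.16) in Ade + IMC. Ifit2 rose least in Ade, by 0.86 (SE 0.15), from 23.2 to 38.1 CPM in Con to 42.2 to 63.2 CPM. Ifit3, the most abundant of the family per kilobase, went from 17.8 to 42.0 CPM in Con to 42.2 to 65.4 CPM in Ade, a difference of 1.01 (SE 0.19). Ifit3 and its copy Ifit3b (0.92, SE 0.18) share 51.2% and 45.0% of their 50-base exon windows, respectively, with each other or another gene, so reads of this length could not always be assigned between them.

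The OAS family is named for enzymes that make 2-5A chains when they meet double-stranded RNA. Whether each member's product has this activity was not measured. The family had the largest median rise of the 9 groups, 2.59 on the log2 scale in Ade and 2.08 in Ade + IMC. All 7 were called higher, with non-overlapping ranges in both groups. Of all genes, 35.1% in Ade and 30.9% in Ade + IMC were called higher, and 22.8% and 20.7%, respectively, had such ranges. Oas3 was the member with the largest rise of all 46. It stood at 1.59, 1.15, 1.22, 2.83 and 1.69 CPM in Con, at 9.69, 12.4 and 21.2 CPM (lowest, median, highest) in Ade and at 7.18, 11.5 and 19.4 CPM in Ade + IMC. This was an 8.17-fold difference in Ade (log2 3.03, SE 0.28, adjusted p = 1.18e-06) and a 6.85-fold difference in Ade + IMC (log2 2.78, SE 0.30). Per kilobase of exon, however, Oas3 stayed the least abundant member in all 3 groups, at 0.24 CPM per kilobase in Con and 1.98 in Ade.

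Oasl2, an OAS-like protein and the most abundant of the family per kilobase, rose from 26.0 to 37.8 CPM in Con to 99.3 to 139 CPM in Ade, a log2 difference of 2.04 (SE 0.12). Its SE was smaller than that of Oas3, and it had 736 to 1187 reads in each Ade mouse against 76 to 142. The SE of Oas1c was also smaller than that of Oas3, with 41 to 76 reads, and the part of read number was not tested. Oas1c, a mouse paralog, rose least, from 3.28 to 4.46 CPM in Con to 6.72 to 8.73 CPM in Ade (0.88, SE 0.14) and 5.13 to 6.45 CPM in Ade + IMC (0.45, SE 0.14, adjusted p = 0.0163). Its 4 cluster neighbours on chromosome 5 (chr5:120730333-120907521) rose by 2.59 to 3.03 in Ade. Oas1a and Oas1g, near-identical copies of each other in this cluster, share 57.6% and 45.7% of their windows, and their separate values (2.66 and 2.59) are uncertain.

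The ISG15 system attaches and removes a ubiquitin-like tag. Isg15, the tag itself, stood at 4.47, 6.04, 7.84, 5.02 and 6.52 CPM in Con, at 18.9, 22.6 and 35.5 CPM (lowest, median, highest) in Ade and at 16.0, 21.4 and 28.7 CPM in Ade + IMC. Both adenine-fed ranges lay above Con, with log2 fold changes of 2.03 (SE 0.20, adjusted p = 1.76e-06) and 1.78 (SE 0.18). Usp18, which removes the tag and also damps the type I receptor, rose by 1.51 (SE 0.11). Herc6, the mouse ligase for the tag, rose by 0.57 (SE 0.13, adjusted p = 0.00202), and its ranges overlapped, 14.9 to 21.5 CPM in Con against 19.2 to 31.5 CPM in Ade. In Ade + IMC the Herc6 ranges did not overlap (24.0 to 32.9 CPM).

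Of the 11 other antiviral effectors, 9 rose in Ade. Mx1, of the dynamin-like GTPase family, stood at 2.18, 2.45, 2.97, 1.67 and 3.13 CPM in Con. It stood at 15.2, 16.0 and 30.4 CPM (lowest, median, highest) in Ade and at 10.8, 16.7 and 20.9 CPM in Ade + IMC. Whether its RNA gives a working protein in C57BL/6J mice was not measured. The rise was 7.51-fold in Ade (log2 2.91, SE 0.23, adjusted p = 3.10e-07) and 6.40-fold in Ade + IMC (log2 2.68, SE 0.22). Ifitm3, which blocks viral entry at endosomes, was the most abundant of all 46 members per kilobase in every group, at 69.9 CPM per kilobase in Con and 239.6 in Ade. Its level ran from 39.2 to 55.3 CPM in Con and from 128.3 to 190.5 CPM in Ade, a log2 difference of 1.78 (SE 0.14). Bst2 (tetherin, 1.87), Rtp4 (1.91), the Mx1 paralog Mx2 (1.74), Trim30a (1.72), the ADP-ribosyltransferase Parp14 (1.65) and the pro-apoptotic Xaf1 (1.44) rose by comparable amounts, and Slfn5 rose by 0.56 with overlapping ranges.

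Among the IFI genes, Ifi27l2a, a small membrane protein, stood at 8.64, 13.2, 10.9, 7.21 and 12.4 CPM in Con, at 43.9, 55.2 and 71.7 CPM (lowest, median, highest) in Ade and at 40.7, 63.4 and 73.8 CPM in Ade + IMC. Its rise was 5.41-fold in Ade (log2 2.43, SE 0.17, adjusted p = 8.49e-08) and 5.74-fold in Ade + IMC (log2 2.52, SE 0.18). Ifi35 rose by 1.41 (SE 0.11). Ifi44 had the smallest rise of the 43 called members, 0.36 (SE 0.12, adjusted p = 0.0216), from 28.8 to 39.6 CPM in Con to 35.8 to 55.6 CPM in Ade, with overlap.

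**Figure D2:**
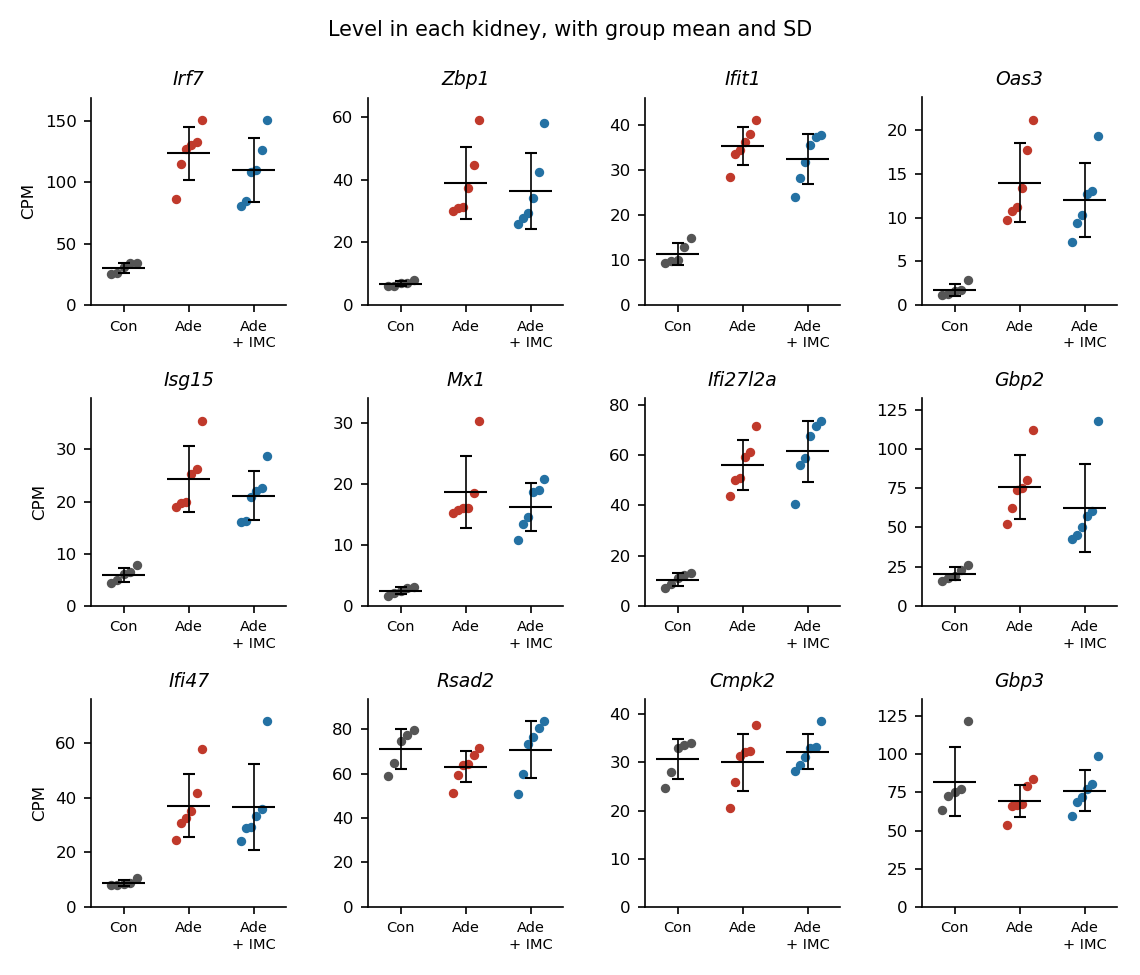
Level in CPM of 12 members in each kidney, points being mice and bars the group mean with SD (Con n = 5, Ade n = 6, Ade + IMC n = 6). The first 9 panels are the member with the largest log2 fold change of each function group, whose adenine-fed mice all lie above Con, and the last 3 are the members that were not called, whose ranges overlap.

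The guanylate-binding proteins, GTPases that coat pathogen vacuoles, had the smallest median rise, 0.84 over the 4 measured. Gbp2 stood at 16.0, 19.1, 23.1, 26.1 and 17.9 CPM in Con, at 52.3, 74.4 and 112 CPM (lowest, median, highest) in Ade and at 42.3, 53.7 and 118 CPM in Ade + IMC. The ranges did not overlap, and Gbp2 rose by 1.90 (SE 0.19, adjusted p = 2.02e-06) in Ade and by 1.58 (SE 0.26) in Ade + IMC. Gbp9 rose by 0.94 (SE 0.16) and Gbp7, whose promoter is printed above with both cores, by 0.74 (SE 0.12).

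All 7 immunity-related GTPases, a family that mice use against vacuolar pathogens, rose in both groups. Ifi47 stood at 7.94, 8.06, 8.38, 8.76 and 10.4 CPM in Con, at 24.6, 33.7 and 57.6 CPM (lowest, median, highest) in Ade and at 24.0, 31.4 and 67.8 CPM in Ade + IMC. Its adenine-fed ranges lay above Con, with a log2 fold change of 2.09 (SE 0.20, adjusted p = 1.37e-06) and 2.04 (SE 0.25). Irgm2, a regulatory member of the family, rose least, by 0.70 (SE 0.12), from 36.4 to 54.1 CPM in Con to 62.9 to 84.9 CPM in Ade. Igtp had the highest mean per kilobase of the family in Ade and Ade + IMC but not in Con. That lead was narrow in Ade (21.3 CPM per kilobase, 21.2 for Irgm1) and included high single mice. These were mouse 308 in Ade (75.2 CPM, others 34.3 to 41.8) and mouse 311 in Ade + IMC (94.9 CPM, others 29.9 to 47.5). Igtp went from 15.7 to 30.5 CPM in Con to 34.3 to 75.2 CPM in Ade (0.97, SE 0.23). Its Ade + IMC range of 29.9 to 94.9 CPM met the Con range. Iigp1 rose by 1.56 and Irgm1 by 0.82. Tgtp1 (1.41, SE 0.29) and Tgtp2 (1.09, SE 0.31) share 81.2% and 86.6% of their windows, so reads could not be assigned between these copies with confidence.

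Rsad2, Cmpk2 and Gbp3 did not pass the test in either comparison with Con. Rsad2 encodes viperin, a radical SAM enzyme that makes a chain-terminating nucleotide, and Cmpk2 encodes a mitochondrial nucleotide kinase. They lie on opposite strands within 37.1 kb of chromosome 12 (chr12:26442746-26479837). Rsad2 stood at 74.7, 79.9, 77.3, 64.7 and 58.8 CPM in Con, at 51.5, 64.1 and 71.5 CPM (lowest, median, highest) in Ade and at 50.9, 75.1 and 83.6 CPM in Ade + IMC. The ranges overlapped, and the log2 fold change was -0.16 (SE 0.10, adjusted p = 0.18) in Ade and -0.04 (SE 0.13, adjusted p = 0.799) in Ade + IMC. Without Con mouse 403, Rsad2 was called lower in Ade (-0.23, adjusted p = 0.0619).

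Cmpk2 stood at 28.1, 34.1, 33.0, 33.6 and 24.6 CPM in Con, at 20.5, 31.7 and 37.8 CPM in Ade and at 28.2, 32.1 and 38.5 CPM in Ade + IMC, with log2 fold changes of -0.03 (SE 0.14, adjusted p = 0.878) and 0.03 (SE 0.11, adjusted p = 0.804). Neither difference exceeded the spread between mice. Gbp3 stood at 122 CPM in Con mouse 201 and at 63.3, 75.4, 72.7 and 77.2 CPM in the other Con mice, against 53.8, 67.1 and 83.6 CPM in Ade and 59.3, 74.3 and 99.1 CPM in Ade + IMC. The log2 fold change was -0.24 (SE 0.16, adjusted p = 0.208) in Ade, and -0.05 without mouse 201. Its neighbours on chromosome 3 (chr3:142530342-142638008), Gbp2 and Gbp7, both rose.

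These 3 genes were not the low-abundance ones. Ranked per kilobase of exon among the 46 members, Gbp3 was number 2 in Con, Rsad2 number 5 and Cmpk2 number 16. In Ade they were number 9, 22 and 33. Ifitm3, Ifi27l2a and Bst2, at number 1, 3 and 4 in Con, took the first 3 places in both adenine-fed groups.

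The second question was whether IMC altered these genes in adenine-fed mice. None of the 46 members was called between Ade + IMC and Ade (limma on log2 of the normalised count plus 1, adjusted p below 0.1), where 0 of 14696 genes were called (0%). On the recovered reads DESeq2 also called 0 members, with 0.139% of all genes called higher and 0.106% lower, and edgeR called 0 members and 0 of 14657 genes (0%). At an unadjusted p below 0.05, 2 members were lower and 0 were higher by limma, set against 3.35% of all genes lower and 3.37% higher. DESeq2 gave 2 lower and 0 higher (all genes, 2.96% and 2.75%), and edgeR gave 3 lower and 0 higher (4.03% and 2.69%). The median member differed by -0.12 on the log2 scale (all genes, 0.01), and 33 of the 46 (71.7%) were below 0, compared with 48.4% of all genes. This median was -0.05, -0.06 and -0.08 without mice 308, 310 and 412, respectively, and -0.18 without mouse 311 or 407.

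No cell type marker was called in this comparison. All 8 macrophage markers were below 0 (median -0.26), with sums of 1446 to 2416 CPM in Ade and 1310.1 to 2211 CPM in Ade + IMC that overlapped. The other immune lists had medians of 0.02 (T and NK cell), -0.04 (B and plasma cell), 0.03 (neutrophil) and -0.01 (plasmacytoid dendritic cell). All 5 red cell markers were above 0 (median 1.56), each at an unadjusted limma p below 0.05. The 3 podocyte markers (median 0.52), the 5 endothelial markers (median 0.31) and 5 of the 6 proximal tubule markers (median 0.36) were above 0 as well. The part of these cells in the members' differences was not tested.

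For each member, the 95% interval of this difference lay between -1 and 1 on the log2 scale, the widest bounds being -0.85 for Gbp2 and 0.66 for Tgtp2. A change past 2-fold in either direction thus lay outside the interval of all 46. The SE ran from 0.09 to 0.33, so the size of difference that an interval could tell from 0 varied between members. The plot of fold changes shows the intervals, 44 of which cross 0.

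**Figure D3:**
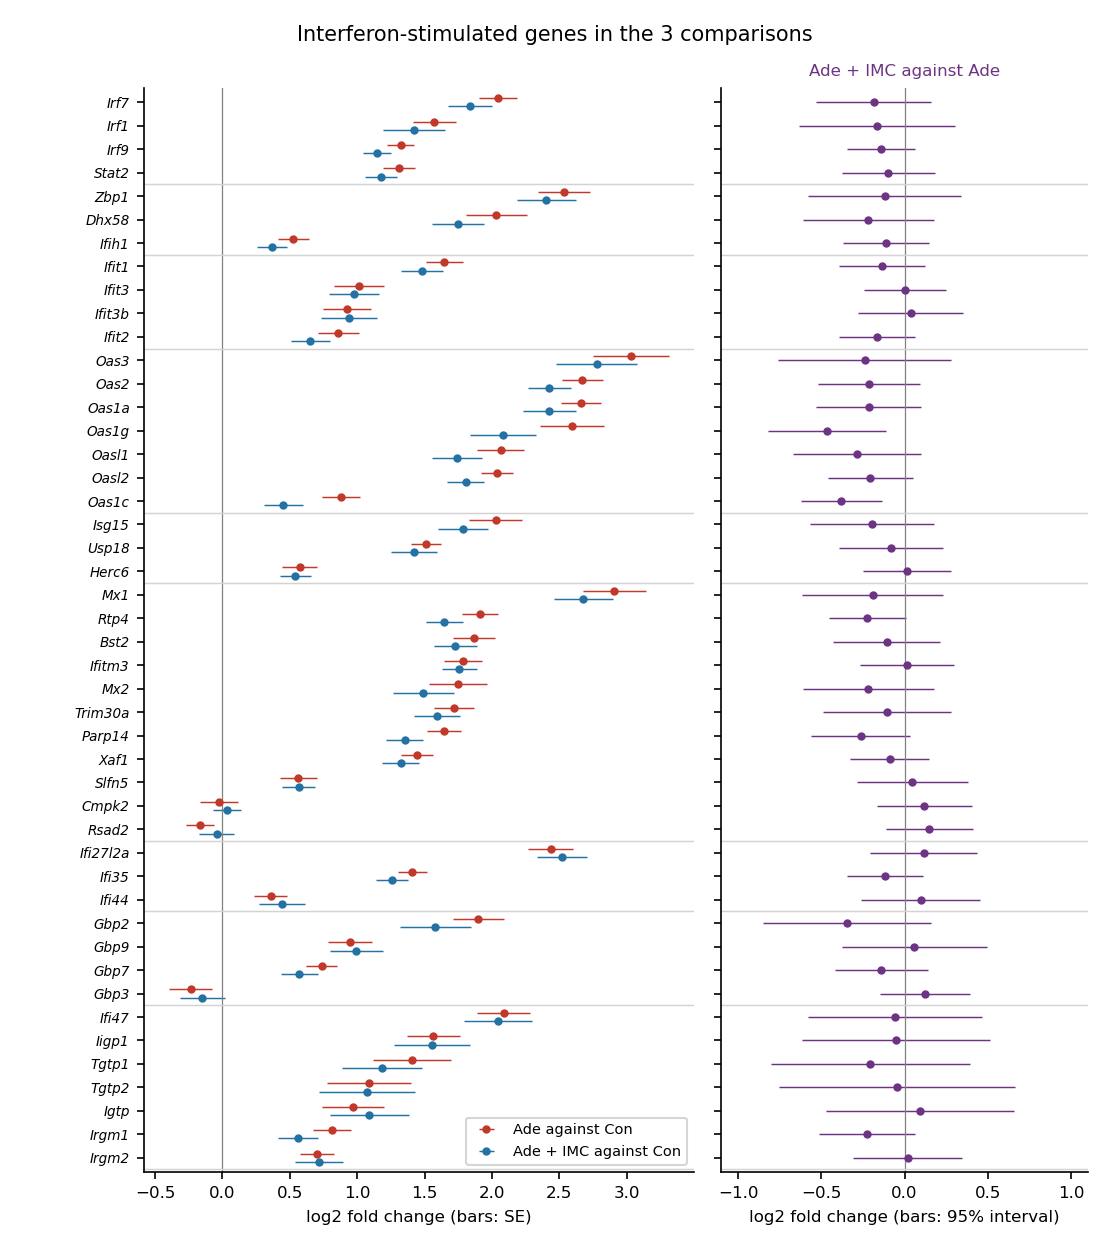
Log2 fold change of the 46 members in Ade and in Ade + IMC against the same Con mice (left, bars show the SE) and in Ade + IMC against Ade (right, bars show the 95% interval). Against Con, 43 members lie to the right of 0 in both groups, while on the right the intervals of Oas1c and Oas1g alone leave out 0.

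The 7 OAS genes were all below 0 in Ade + IMC against Ade, from -0.20 to -0.47 (median -0.24). Without mouse 412 the OAS median was -0.16 and the value nearest to 0 was -0.10, and without mouse 308 they were -0.20 and -0.11. The 4 transcription factors were also below 0 (median -0.15, and -0.08, -0.09 and -0.09 without mice 308, 310 and 412). The 3 sensors were below 0 with all mice (median -0.12), but without mouse 308 the highest of them stood at 0.01. Their median was -0.07 without mouse 409 or 412 and -0.23 without mouse 311. Of the 5 members with the smallest p, 3 were OAS genes. Oas1c had a normalised count of 50.1, 54.2 and 65.0 (lowest, median, highest) in Ade and of 37.7, 42.5 and 47.9 in Ade + IMC. These ranges did not overlap, as in 0.0885% of all genes in this direction. Oas1c shares 227 of its 2405 exon bases with Gm43069 on the other strand, and without strand the reads of the pair cannot be told apart. The difference was -0.38 (95% interval -0.62 to -0.14, adjusted p = 0.706 by limma), with an exact two-sided permutation p of 0.00216 over 924 splits, the smallest they can give. Oas1g had 49.3, 65.8 and 83.1 in Ade and 39.2, 47.8 and 57.8 in Ade + IMC, with overlap (-0.47, 95% interval -0.82 to -0.11, adjusted p = 0.711 by limma, exact permutation p = 0.0238).

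Rtp4, a receptor chaperone that also restricts flaviviruses, had 274.9, 335.5 and 373.9 in Ade and 222.9, 288.7 and 326.4 in Ade + IMC (-0.22, 95% interval -0.46 to 0.01, exact permutation p = 0.0693). Parp14 had 906.2, 1106 and 1444 in Ade and 746.4, 1009 and 1191 in Ade + IMC (-0.26, 95% interval -0.56 to 0.03, exact permutation p = 0.117). Oasl2 had 741, 979.8 and 1032 in Ade and 659.5, 806.5 and 1029.8 in Ade + IMC (-0.20, 95% interval -0.46 to 0.05, exact permutation p = 0.136). The groups overlapped for all 3. Rtp4 shares 296 of its 2131 exon bases with Gm45338 on the same strand, and reads from these bases cannot be told apart. Because these 5 were picked for their small p-values, the permutation values describe them and do not test the list.

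The mouse numbers begin with 2, 3 or 4, a digit whose meaning is not stated. Splits within the digit gave an exact permutation p of 0.00556 for Oas1c, the smallest that 180 splits can give, and 0.0111 for Oas1g. With the digit as a block limma called 133 genes but again 0 members, the smallest adjusted p being 0.137 for Oas1g. The median difference of the 46 members between Ade + IMC and Ade was 0.14 among the mice whose number begins with 2 (2 against 2), -0.47 among those with 3 (2 Ade + IMC against 1 Ade) and -0.20 among those with 4 (2 against 3), so its direction did not hold within every digit. Against the 1 or 2 Con mice of each digit, the median was 1.28 to 1.74 in Ade and 1.23 to 1.53 in Ade + IMC.

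Individual mice differed in which members were high. Mouse 308 was the highest Ade mouse for 30 of the 46 members, including 10 of the 11 measured GTPases (guanylate-binding and immunity-related). Mouse 311 was the highest Ade + IMC mouse for 21 members, again including 10 of the 11 GTPases, but only 2 of the 14 IFIT, OAS and ISG15 system genes, of which it was the lowest for 4. This pairing of groups was made after the values were seen and is described without a test. The mean log2 ratio to the Con mean was 1.75 for the GTPases and 1.39 for the 14 other genes in mouse 311, whereas in the other 11 adenine-fed mice the GTPases were the lower of the pair, by 0.30 (mouse 308) to 0.89 (mouse 211).

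**Figure D4:**
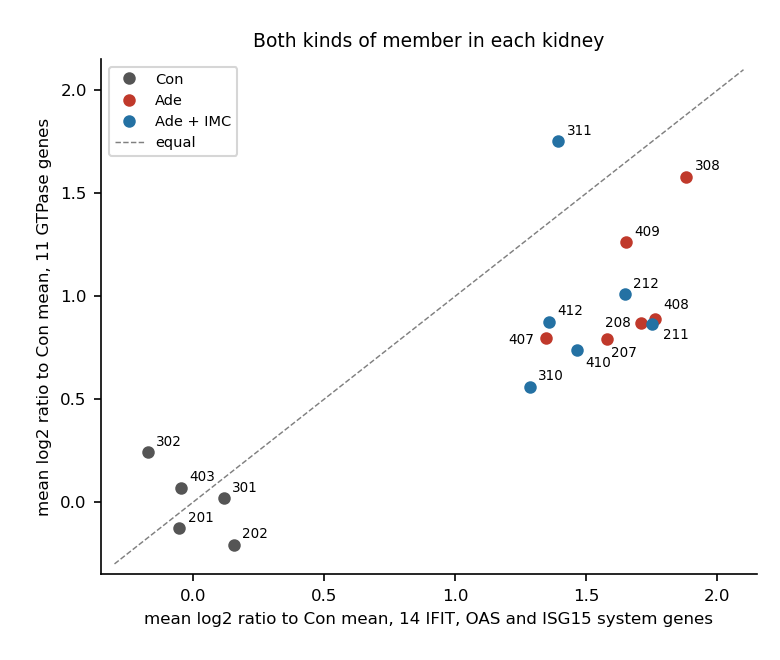
Mean log2 ratio to the Con mean of the 14 IFIT, OAS and ISG15 system genes (horizontal) and of the 11 GTPases (vertical) in each of 17 kidneys, with the mouse number beside each point and a dashed line of equality. Mouse 311 is the only adenine-fed mouse above the line, at 1.39 and 1.75, and mouse 308 is the highest in Ade on both axes, at 1.88 and 1.58.

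Other genes moved with these mice. Cxcl9, a chemokine known for its answer to interferon-gamma, reached 163 and 106 CPM in mice 311 and 308, and at most 40.5 and 48.6 CPM in the rest of their groups. Ifng itself gave 11 reads in mouse 311, 7 in each of mice 308 and 409, and 0 to 8 reads in the others. Mouse 311 also had the highest T and NK cell sum (248 CPM, others in its group 52.4 to 101 CPM) and B and plasma cell sum (2690.0 CPM, others 62.9 to 437 CPM), and mouse 308 led the Ade group in both (179 and 960.1 CPM). The same mice led their groups in the plasmacytoid dendritic cell sum (8.96 CPM in mouse 311, others 3.51 to 5.13 CPM, and 6.28 CPM in mouse 308, others 3.19 to 5.94 CPM) and in the macrophage sum (2211 and 2416 CPM, others up to 2042 and 2372 CPM). The part of these cells in the GTPase levels was not tested. Without mouse 311, the median rise of the immunity-related GTPases in Ade + IMC against Con was 0.76 in place of 1.09, and that of Tgtp2 was 0.69 in place of 1.07, while 43 members were still called. Without mouse 308, 43 members were called in Ade against Con, with a median of 1.42.

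The rest of the interferon pathway was read from lists of other genes, beside a background of 35.1% of all genes called higher and 32.2% lower in Ade against Con. These lists too were chosen with earlier results known, so their counts are descriptive. Of 21 interferon genes, Ifng was the only 1 linked to an identifier, and it did not pass the filter in any comparison. Among 10 receptor chains and kinases, 9 were higher in Ade and 0 lower (median 0.83), led by Ifngr2, a chain of the interferon-gamma receptor (1.46, SE 0.10), while the kinase Jak2 stood at -0.03 (SE 0.10, adjusted p = 0.827). Of 15 tested sensors, adaptors and induction factors, 12 were higher and 2 lower (median 1.20). Tmem173, which encodes the DNA-signalling adaptor STING, rose most (3.28, SE 0.16), and Mavs, the mitochondrial adaptor of the RNA sensors, fell by 0.32 (SE 0.09, adjusted p = 0.00895). Of 11 negative regulators, 9 were higher and 1 lower (median 1.03), Socs3, a feedback inhibitor that also answers to interleukins, rising by 4.15 (SE 0.22) and the mitochondrial protein Nlrx1 falling by 0.23 (SE 0.11, adjusted p = 0.0789). Of 66 other interferon-induced genes tested, 59 were higher and 3 lower (median 1.57), from Slfn1 at 3.52 (SE 0.30) to the IFIT paralog Ifit1bl2 at -1.26 (SE 0.21, adjusted p = 0.000175).

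In Ade + IMC against the same Con mice, 8 of the 10 receptor chains and kinases were higher and 0 lower, as were 11 of the 15 sensors and adaptors (2 lower), 8 of the 11 negative regulators (0 lower) and 60 of 67 other interferon-induced genes (4 lower), beside 30.9% of all genes called higher and 32.3% lower. Between Ade + IMC and Ade, 0 genes of these lists were called by limma. At an unadjusted p below 0.05, 1 gene in each of the 4 lists (of 10, 15, 11 and 67 tested) was lower and 1 of the 67, Ifit1bl2 (0.60, SE 0.23), was higher, beside 3.35% and 3.37% of all genes. Counts this small are not told apart from that background.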

How the data were processed

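The authors sequenced kidney RNA (TruSeq libraries, 50-base single-end reads) and deposited raw counts per gene for Con and Ade mice and a table of normalised counts (unit signal), scaled by DESeq2's median of ratios, for Ade and Ade + IMC. Their methods name STAR on mm10, whereas the submitters' processing notes name Trimmomatic 0.39, Bowtie2 2.2.5 and HTSeq 0.9.1, so the aligner is uncertain, and strand handling is not given in the sources used here, so reads from a gene and one that overlaps its exons on the other strand (as for Oas1c, Dhx58, Slfn5, Usp18, Ifi35, Irf1, Ifi47 and, for fewer than 50 bases, Irf7, Oasl1 and Gbp2) cannot be told apart. Exon bases shared with another gene on the same strand cannot be resolved by strand at all. The largest such overlaps were in Herc6 (1269 bases), Gbp7 (637), Rtp4 (296), Tgtp1 (223), Igtp and Irgm2 (162 each) and Irf9 (123). The other deposited file, of the authors' own comparisons, served only to link symbols with identifiers. Its fold changes and p-values were not used. No column of the tables lacked a sample.

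The normalised counts were whole multiples of 1 read (100% of values, tolerance 0.01 reads), which gave back each library's reads; all 123804 Ade values equalled the raw counts. Ade and Ade + IMC against Con were tested on counts with edgeR 4.0.16 (quasi-likelihood test, TMM, filterByExpr), and Ade + IMC against Ade with limma 3.58.1 on log2 of the normalised count plus 1, for genes with a mean of at least 10, in R 4.3.3. Adjusted p (Benjamini-Hochberg over all genes tested) was held to 0.1, after the study's methods. CPM values are TMM-scaled over the 17 mice, and mean ± SD is over mice. Alternatives were DESeq2 1.42.0, upper-quartile scaling, no filter on low values, limma on log2 CPM, pseudocounts of 0.5 and 5, a block for the digit with which the mouse number begins, a threshold of 0.05 and leaving out each mouse. The labels give each mouse a second number too, without saying that it pairs mice across groups, and a block on the first and last digit of this second number was added after seeing the data. Each fit was tested on simulated data. Positions are from GENCODE M21 and promoters from RefSeq (GRCm38.p6). Named members were, in each function group, those with the largest and smallest log2 fold change and the highest level, those not called, and the 5 with the smallest p between Ade + IMC and Ade. The members and all lists were chosen with earlier results of these data known.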

Additional observations from a re-analysis of the deposited data

Results flagged for a closer look

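In 13 of 138 sets of values (46 members in 3 groups), the highest mouse stood apart from the rest of its group by more than Dixon's 95% limit, which chance alone passes in about 1 of 20 independent groups. The members share the same 17 mice and are not independent, so 1 high mouse can pass for many of them. Mouse 311 of Ade + IMC accounted for 10 of the 13, and 8 of those 10 were GTPases: Gbp2 at 118 CPM (the other 5 mice, 42.3 to 60.2), Iigp1 at 133 CPM (35.2 to 68.7), Igtp at 94.9 CPM (29.9 to 47.5), Irgm1 at 147 CPM (91.8 to 104), Irgm2 at 117 CPM (59.7 to 72.7), Tgtp1 at 10.8 CPM (3.85 to 5.97), Tgtp2 at 14.9 CPM (4.14 to 7.04) and Ifi47 at 67.8 CPM (24.0 to 35.9). The other 2 in this mouse were Irf1 at 134 CPM (53.2 to 78.4) and Trim30a at 80.4 CPM (38.5 to 52.8). Mouse 308 of Ade stood apart for Igtp at 75.2 CPM (34.3 to 41.8) and Mx1 at 30.4 CPM (15.2 to 18.5). Mouse 201 of Con stood apart for Gbp3 at 122 CPM (63.3 to 77.2), and it was the lowest Con mouse for Gbp2. The sums of macrophage, T and NK cell, B and plasma cell, and plasmacytoid dendritic cell markers were highest in mice 308 and 311 within their groups. The neutrophil sum was not. The part of these cells in these values was not tested.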

How the results depend on the processing

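The count of members called higher was 43 in both comparisons with Con under every alternative other than the replicate block, and the count called lower was 0 throughout except without 1 Con mouse (403), where it was 1 in Ade (range over left-out mice 0 to 1). Between Ade + IMC and Ade the counts were 0 under every alternative. Among named members in the comparisons with Con, these alternatives turned the sign of the uncalled ones alone. Cmpk2 in Ade against Con went from -0.0277 to 0.0324 with upper-quartile scaling and ranged from -0.100 to 0.0662 over left-out mice. In Ade + IMC against Con, Rsad2 went from -0.0425 to 0.0351 with upper-quartile scaling and ranged from -0.110 to 0.0427 over left-out mice, Gbp3 from -0.233 to 0.0384 and Cmpk2 from -0.0412 to 0.0763. The cause was not tested. The digit block, whose meaning is not stated, changed no member's call. The labels give each mouse a second number, whose last digit recurs across groups, and a replicate block on its first and last digit together was added after seeing the data. Its first digit is that of the mouse number. Whether these digits pair the mice is not stated, and 5 of the 12 pairs of mice that share both had deviations from their group means correlated above 0.1 (range -0.211 to 0.497), so they were not read as pairs. With this replicate block 42 members were called higher in Ade (Ifi44 not, 0.333, edgeR adjusted p = 0.154) and 41 in Ade + IMC (Ifi44 not, 0.344, adjusted p = 0.19; Oas1c not, 0.372, adjusted p = 0.168), and 0 between Ade + IMC and Ade. In Ade + IMC against Con it turned Gbp3 to 0.0813 and Cmpk2 to -0.0069. With 5 or 6 mice a group, the SE of a member's log2 fold change was 0.09 to 0.36, so differences of the size seen between Ade + IMC and Ade were within the spread between mice for most members.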
